A study of Saccharomyces cerevisiae with 25 samples.

Results

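*OLE1*, the gene for the only fatty acid desaturase of *Saccharomyces cerevisiae*, was followed together with 5 genes that lie next to it or act in its control: *SDS23*, *MGA2*, *SPT23*, *UBX2* and *RSP5*. These 6 genes, chosen by name with earlier results of these data known, are 6 of the 6713 genes listed. All 6 had reads in every library. RNA had been sequenced from 25 cultures of 5 haploid BY strains, which derive from the laboratory strain S288C, grown in minimal medium with glucose and harvested in 3 batches. *OLE1(FAR)* carries the allele of the wine strain RM at 1 base of the FAR (fatty acid regulated) element upstream of *OLE1*, *OAF1(L63S)* carries the RM allele of the oleate-activated transcription factor gene *OAF1*, and *RGT2(V539I)* the RM allele of the glucose sensor gene *RGT2*. The wild type YFA1130, the control for *OLE1(FAR)* and *OAF1(L63S)*, had a GFP tag taken off *FAA4*, and the wild type YFA1131, the control for *RGT2(V539I)*, had a deletion of *RGT2* replaced by its BY allele. All 5 strains share the BY4741-type deletions (his3Δ1 leu2Δ0 met15Δ0 ura3Δ0), each is 1 clone, and each gave 5 cultures. A difference between strains therefore cannot be told apart from a difference between clones.

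Ole1 sits in the membrane of the endoplasmic reticulum (ER) and puts a double bond into saturated fatty acyl-CoA, which makes the unsaturated fatty acids that keep membranes fluid. Its transcription depends on Mga2 and Spt23, related transcription factors that are made as ER membrane proteins. The ubiquitin ligase Rsp5 marks them when unsaturated fatty acids are scarce, the proteasome cuts off a soluble part, and this part acts in the nucleus. Ubx2 is an ER membrane protein that recruits the segregase Cdc48, which with Ufd1 and Npl4 pulls ubiquitinated proteins out of the membrane. Sds23 is an inhibitor of protein phosphatases, and its gene is read away from *OLE1* across a shared intergenic region.

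In the sacCer3 build, *OLE1* (YGL055W) lies on chromosome VII from 398628 to 400160 on the forward strand, and *SDS23* (YGL056C) from 396035 to 397618 on the reverse strand. *MGA2* (YIR033W) lies on chromosome IX from 416124 to 419465, *SPT23* (YKL020C) on XI from 398832 to 402080, *UBX2* (YML013W) on XIII from 244149 to 245903, and *RSP5* (YER125W) on V from 410189 to 412618. The region between *SDS23* and *OLE1* spans 1009 bp, from 397619 to 398627, and is annotated as intergenic. The edited base of the FAR variant, A398081G counted along chromosome VII, lies 547 bases before the start of *OLE1* and 463 bases before that of *SDS23*. It is shown here because it is the only edited base next to any of the 6 genes. The first line below is the reference strand at chrVII:398041-398121, the next is the reference at chrVII:398076-398095, and the last is the study's primer for the RM allele at the same place, each with the edited base in capitals.
FAR region, BY: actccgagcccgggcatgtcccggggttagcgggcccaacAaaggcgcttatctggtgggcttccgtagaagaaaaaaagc
FAR primer site, BY: ccaacAaaggcgcttatctg
FAR primer, RM allele: ccaacGaaggcgcttatctg

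The search for 3 motifs covered both strands of the intergenic region and of the 1000 bases before the start of each of the 6 genes. The low oxygen response element, ACTCAACAA, through which Mga2 is known to act on *OLE1*, matched once, from 343 to 335 bases before *OLE1*, and 68 of 5996 upstream regions of the same length (1.13%) hold a match. The Hap1 consensus, CGGNNNTANCGG, bound by the heme-responsive activator Hap1, also matched once, from 566 to 555 bases before *OLE1*, and 58 of the 5996 regions (0.967%) hold one. The edited base was outside both matches. Both are printed below with the match in capitals, at chrVII:398273-398305 and chrVII:398050-398085 on the forward strand.
Low oxygen response element: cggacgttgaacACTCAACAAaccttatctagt
Hap1 consensus: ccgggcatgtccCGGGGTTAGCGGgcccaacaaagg
The oleate response element bound by Oaf1 was searched as CGGNNNTNA, 9 to 12 bases and CCG. It matched in none of these windows, while 228 of the 5996 upstream regions (3.8%) hold it. The windows before *MGA2*, *SPT23*, *UBX2* and *RSP5* held none of the 3 motifs. A match says only that the letters are present.

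The values are read counts that the authors estimated per gene. Totals ranged from 9216530 to 14645000 per library, with a median of 11038300. Levels below are CPM, in which TMM scaling puts the counts of all libraries on 1 library size. The counts behind them were at least 499 for every one of the 6 genes in every library. Counting alone then gives an error of at most 1.13% for *OLE1*, but of up to 3.31% for *SPT23* and 3.43% to 4.48% for *UBX2*. Within strains the coefficient of variation was 4.52% to 8.87% for *SPT23* and 3.85% to 15.2% for *UBX2*, so for these genes counting error was a large part of the spread in some strains. Within a strain, replicates 1 to 5 are cultures from RNA isolation batches 1 to 5. In RNA from whole cultures, fewer cells expressing a gene and less RNA per cell cannot be told apart. The counts hold no base calls, so the edits themselves were not checked here.

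A pair of libraries stood apart from their strains. The library labelled *OLE1(FAR)* replicate 2 had 119 CPM of *MGA2*, against 281 to 315 CPM in the other *OLE1(FAR)* libraries, and the library labelled *OAF1(L63S)* replicate 5 had 289 CPM, against 101 to 128 CPM in the other *OAF1(L63S)* libraries. The same exchange was seen for *IZH4*, a gene for a membrane protein of zinc homeostasis, with 2.43 CPM in the library labelled *OLE1(FAR)* replicate 2 and 45.3 to 50.7 CPM in its strain, and 47.6 CPM in the library labelled *OAF1(L63S)* replicate 5 and 2.63 to 3.67 CPM in its strain. *POX1*, encoding the acyl-CoA oxidase of peroxisomes, had 28.4 CPM in the library labelled *OLE1(FAR)* replicate 2, against 0.42 to 2.00 CPM in the others, and 1.58 CPM in the library labelled *OAF1(L63S)* replicate 5, against 17 to 22.8 CPM. *FAA4*, which encodes an acyl-CoA synthetase, had 496 CPM in the library labelled *OLE1(FAR)* replicate 2, against 859 to 974 CPM, and 931 CPM in the library labelled *OAF1(L63S)* replicate 5, against 460 to 655 CPM. In these 4 genes each library thus resembled the other strain. For *OLE1(FAR)* and *OAF1(L63S)*, the tests and means of *OLE1* and *MGA2* are given with and without both, as are the ratio tests. Other values include both unless stated. Since these 4 genes set the libraries apart, their own values without both are not an independent test.

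Per length of gene, *OLE1* was the highest of the 6 genes in the 10 wild-type libraries, with a mean of 624 CPM per kb. *SDS23* followed at 70.7 CPM per kb, *MGA2* at 61.4, *RSP5* at 44.0, *UBX2* at 32.6 and *SPT23* at 30.3. Of the related activators, *MGA2* thus had the higher level per length.

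**Figure D1:**
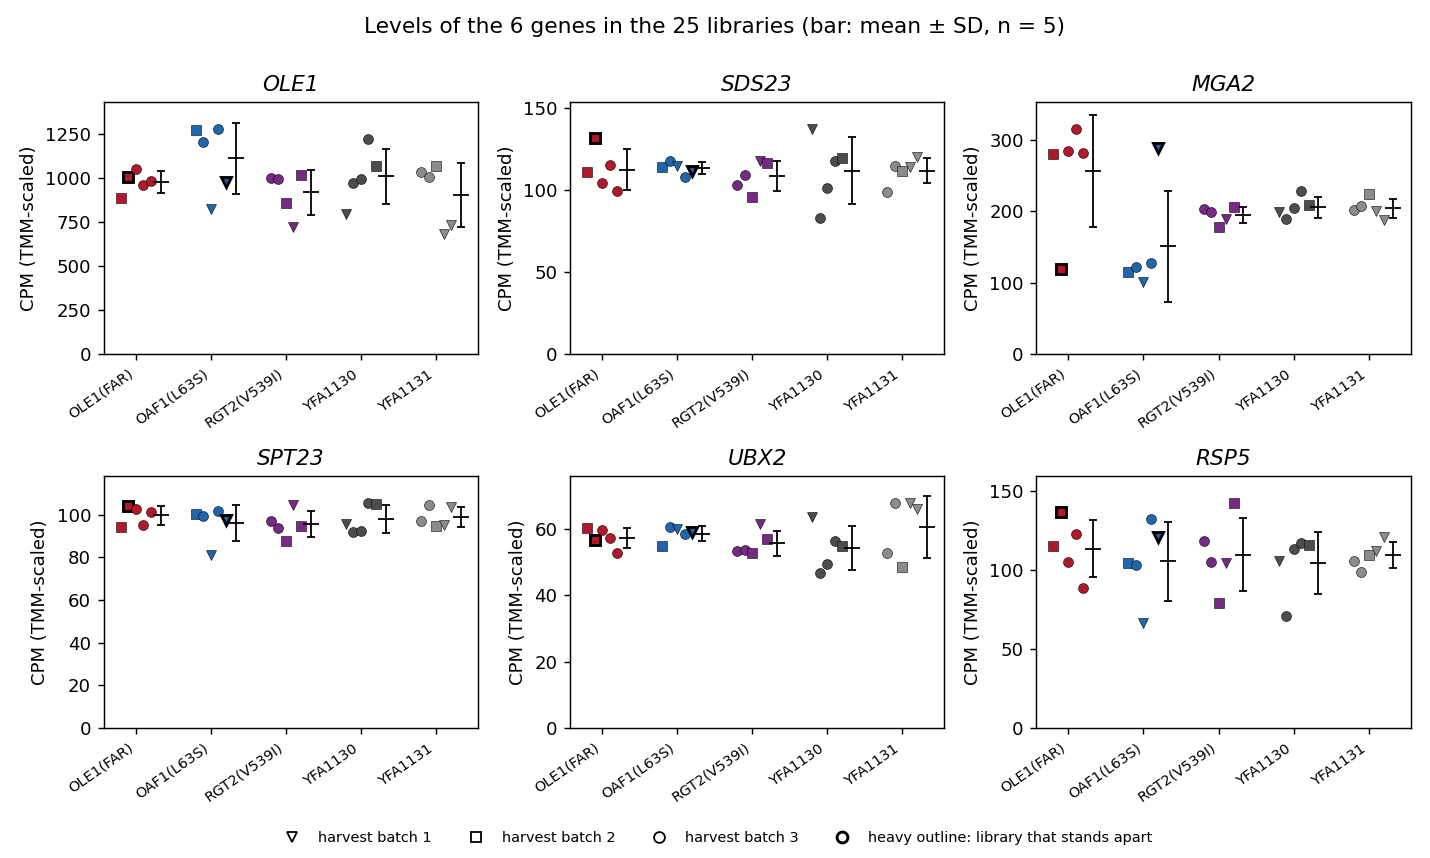
TMM-scaled CPM (vertical axes) of the 6 genes in each library by strain (horizontal axes), with marker shape for the harvest batch, a heavy outline for the libraries that stand apart, and a bar for the mean ± SD of 5 libraries. *MGA2* lies at 281 to 315 CPM in 4 *OLE1(FAR)* libraries, at 101 to 128 CPM in 4 *OAF1(L63S)* libraries and at 178 to 229 CPM in the other strains. The libraries that stand apart lie at 119 CPM (*OLE1(FAR)*) and 289 CPM (*OAF1(L63S)*). The strains overlap for the other 5 genes.

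*OLE1*, the desaturase gene itself, overlapped between all strains. In replicates 1 to 5, *OLE1(FAR)* had 883, 1007, 1048, 959 and 981 CPM, with a mean of 976 ± 61.3 (SD, n = 5). In *OAF1(L63S)* it had 1273, 1204, 822, 1277 and 978 CPM, with a mean of 1111 ± 203 (SD, n = 5). *RGT2(V539I)* had 998, 995, 859, 719 and 1019 CPM, with a mean of 918 ± 128 (SD, n = 5). The wild types had 793, 970.2, 994, 1220.0 and 1065 CPM in YFA1130, a mean of 1009 ± 155, and 1033, 1003, 1069, 681 and 731 CPM in YFA1131, a mean of 903 ± 183 (SD, n = 5 each). The means thus ran from *OAF1(L63S)* through YFA1130, *OLE1(FAR)* and *RGT2(V539I)* to YFA1131, and no neighbours in that order differed by more than their SDs. The strains differ in how many cultures came from harvest batch 1, which had the low values. In batches 2 and 3 alone the order was *OAF1(L63S)* (1252 ± 40.9 CPM, n = 3), YFA1130 (1062 ± 113, n = 4), YFA1131 (1035 ± 33.3, n = 3), *OLE1(FAR)* (976 ± 61.3, n = 5) and *RGT2(V539I)* (968 ± 73.3, n = 4), so that YFA1131 moved up from last. Without the libraries that stand apart the means of all batches were 968 ± 67.8 in *OLE1(FAR)* and 1144 ± 217 in *OAF1(L63S)* (SD, n = 4 each). The 6 libraries of harvest batch 1 held the lowest value of each strain that had one.

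*SDS23*, on the other side of the FAR variant, had means of 112 ± 12.5 CPM in *OLE1(FAR)*, 113 ± 3.71 in *OAF1(L63S)*, 109 ± 9.17 in *RGT2(V539I)*, 112 ± 20.5 in YFA1130 and 112 ± 7.87 in YFA1131 (SD, n = 5 each). Both its lowest value, 83.2 CPM in replicate 2, and its highest, 137 CPM in replicate 1, were in YFA1130, so the whole spread of the other strains lay inside that of 1 wild type.

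*MGA2*, encoding 1 of the activators, had 281, 119, 284, 315 and 282 CPM in *OLE1(FAR)* and 115, 121, 101, 128 and 289 CPM in *OAF1(L63S)*. In *RGT2(V539I)* it had 203, 199, 178, 189 and 207 CPM. YFA1130 had 199, 189, 204, 229 and 209 CPM, and YFA1131 had 202, 207, 225, 200.2 and 188 CPM. Leaving out the libraries that stand apart, the 4 *OLE1(FAR)* libraries (291 ± 16.4 CPM, SD) lay above and the 4 *OAF1(L63S)* libraries (116 ± 11.5 CPM, SD) below each of the other 15, without overlap. Those libraries were set apart in part by *MGA2* itself, so the lack of overlap and the smaller SDs partly follow from leaving them out. How many genes separate the strains in this way was not counted. With all libraries the means were 256 ± 78.1 in *OLE1(FAR)*, 151 ± 78.0 in *OAF1(L63S)*, 195 ± 11.4 in *RGT2(V539I)*, 206 ± 14.8 in YFA1130 and 204 ± 13.4 in YFA1131 (SD, n = 5 each), and the last 3 did not differ beyond their SDs.

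*SPT23*, for the related activator, varied least of the 6 genes, with a coefficient of variation of 6.11% over the 25 libraries. Its means were 99.7 ± 4.50 CPM in *OLE1(FAR)*, 96.0 ± 8.51 in *OAF1(L63S)*, 95.5 ± 6.13 in *RGT2(V539I)*, 98.0 ± 6.66 in YFA1130 and 99.1 ± 4.65 in YFA1131 (SD, n = 5 each). Of the genes for proteins that act on both activators, *UBX2*, for the ER membrane protein, ranged from 46.8 to 67.7 CPM with a coefficient of variation of 9.72%, and its strain means lay between 60.5 CPM in YFA1131 and 54.1 CPM in YFA1130. *RSP5*, for the ubiquitin ligase, ranged from 66.5 CPM in *OAF1(L63S)* replicate 3 to 142 CPM in *RGT2(V539I)* replicate 5, with 16.8%, and its strain means (114, 106, 109.9, 105 and 109 CPM, strains in the same order) lay well within the SDs of 8.20 to 25.0 CPM.

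Whether the FAR variant goes with a change of *OLE1* was asked in *OLE1(FAR)* against YFA1130. Of the 6 genes, only *MGA2* passed the 10% false discovery rate (FDR) of edgeR's quasi-likelihood test in the model of all 25 libraries, and it was higher. Over all genes tested, 0.98% passed (56 of 5713), and 0.543% (31) without the libraries that stand apart. The log2 fold change of *MGA2* was 0.58 (SE 0.08, adjusted p = 0.000561 from edgeR), higher in 4 of 5 pairs of the same replicate number. Without both libraries it was 0.51 (adjusted p = 3.1e-05), but *MGA2* was among the genes that set them apart. That of *OLE1* was -0.08 (SE 0.06, 95% interval -0.20 to 0.05, unadjusted p = 0.206, adjusted p = 0.768), and -0.11 without both. *OLE1* was higher in 3 of 5 pairs and lower in 2. It did not pass in any alternative tried, but its size depended on the model: it was -0.22 with library preparation at 4 levels (unadjusted p = 0.00524, adjusted p = 0.537), -0.14 without surrogate variables (unadjusted p = 0.0502) and -0.17 with both libraries also left out (unadjusted p = 0.0141, adjusted p = 0.665), while single libraries left out gave -0.14 to -0.03, the ends without *OLE1(FAR)* replicate 3 and *OLE1(FAR)* replicate 1. For *SDS23* the value was 0.05 (95% interval -0.09 to 0.18), for *SPT23* 0.04, for *UBX2* 0.14 and for *RSP5* 0.16, and none of these 4 passed. Without the surrogate variables, which stand for variation that the known batches do not describe, *MGA2* had 0.30 and did not pass (adjusted p = 0.944), but with those left out and both libraries left out it had 0.46 and did (adjusted p = 0.000165). In a fit of only the 10 libraries of both strains, *MGA2* had 0.21 and did not pass. This fit had no surrogate variables and almost as many terms as libraries, so its calls carry little weight.

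In *OAF1(L63S)* against YFA1130, *OLE1* and *MGA2* were called in opposite directions. Here 1.17% of all genes passed (67), and 1.54% (88) without both libraries. *MGA2* had a log2 fold change of -0.78 (SE 0.08, adjusted p = 1.88e-05 from edgeR), lower in 4 of 5 pairs, and -0.81 without both libraries. *OLE1* had 0.22 (SE 0.06, 95% interval 0.10 to 0.34, adjusted p = 0.0860), higher in 3 of 5 pairs, and 0.23 without both (adjusted p = 0.0681). In the pairs where it was lower, replicates 3 and 5, *OAF1(L63S)* was of harvest batch 1 and YFA1130 of a later batch. The pair counts therefore mix strain with harvest. The *OLE1* call did not hold when any 1 of the 5 *OAF1(L63S)* libraries or YFA1130 replicate 1, 2, 3 or 5 was left out (adjusted p = 0.112 to 0.248), although the fold change stayed between 0.21 and 0.26. Without YFA1130 replicate 4 it held (adjusted p = 0.0401). In harvest batches 2 and 3, the 3 *OAF1(L63S)* libraries had 1252 ± 40.9 CPM of *OLE1* and the 4 YFA1130 libraries had 1062 ± 113 CPM (SD), and YFA1130 replicate 4, at 1220.0 CPM, lay among the *OAF1(L63S)* values. Without surrogate variables neither gene passed (*OLE1* 0.25, adjusted p = 0.345, and *MGA2* -0.56, adjusted p = 0.914), and with both libraries also left out only *MGA2* did (-0.81). *SDS23* had 0.02, *SPT23* -0.01, *UBX2* 0.10 and *RSP5* 0.02, and none passed. In a fit of only the 10 libraries of both strains *RSP5* had 0.36 and passed (adjusted p = 0.0120), and *OLE1* did not. This fit, too, had no surrogate variables and almost as many terms as libraries, so neither outcome carries much weight. The comparisons of *OLE1(FAR)* and *OAF1(L63S)* share the YFA1130 libraries.

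In *RGT2(V539I)* against YFA1131, none of the 6 genes passed, while 1.07% of all genes did (61). *OLE1* had a log2 fold change of 0.01 (95% interval -0.11 to 0.14), and *MGA2* had 0.06 (95% interval -0.11 to 0.23). Between the wild types, YFA1131 against YFA1130, *OLE1* had -0.08 (95% interval -0.20 to 0.04) and *MGA2* -0.11 (95% interval -0.27 to 0.05). None of the 6 passed there, and 0.158% of all genes did (9). At an unadjusted p under 0.05 none of the 6 passed either, in both comparisons. DESeq2, run as an alternative, also called none.

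**Figure D2:**
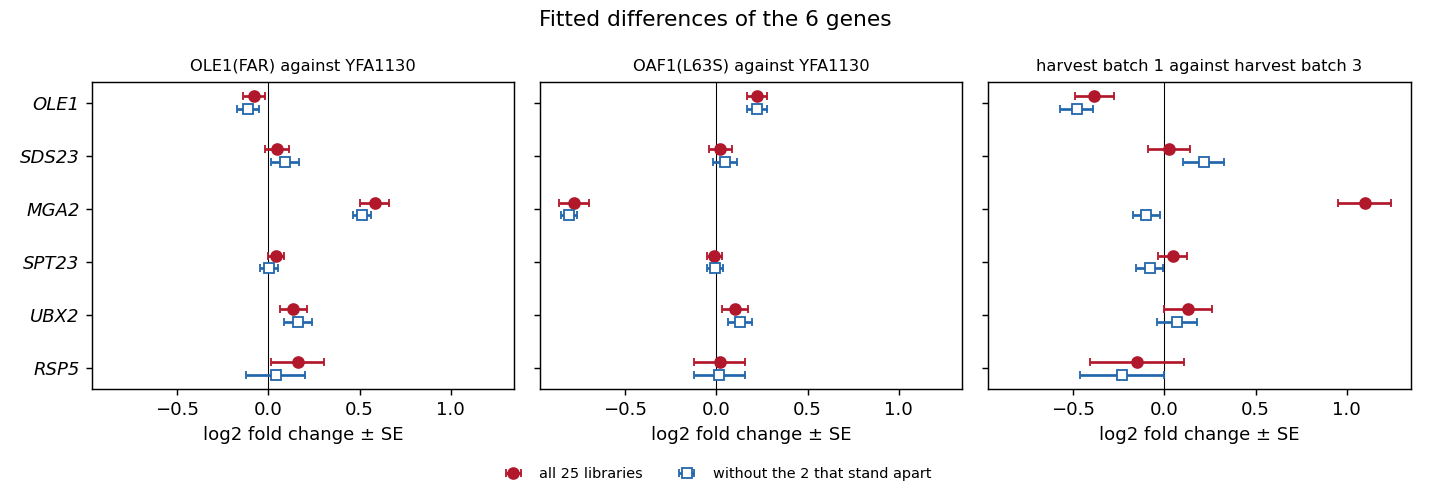
Log2 fold changes ± SE (horizontal axes) of the 6 genes in 3 comparisons, from the fit of all 25 libraries (filled circles) and without the libraries that stand apart (open squares). *MGA2* lies at 0.58 in *OLE1(FAR)* and at -0.78 in *OAF1(L63S)* with little change between fits, but moves to -0.10 without both libraries, against 1.10 with them, in the comparison of harvest batches.

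Because *OLE1* and *SDS23* are read from either side of the FAR variant, their ratio within a library needs no scaling between libraries. The *OLE1* to *SDS23* ratio of counts ranged from 7.63 to 10.0 in *OLE1(FAR)*, from 7.15 to 11.8 in *OAF1(L63S)* and from 5.78 to 11.7 in YFA1130, so the strains overlapped. The mean log2 ratio was 3.12 in *OLE1(FAR)* and 3.18 in YFA1130, a difference of -0.06 (exact permutation test, two-sided p = 0.802, n = 5 each). In *OAF1(L63S)* it was 3.27, a difference from YFA1130 of 0.10 (exact permutation test, two-sided p = 0.675, n = 5 each). The smallest p that these 252 arrangements allow is 0.00794. Without the libraries that stand apart the differences were -0.0088 and 0.13 (exact permutation p = 0.976 and 0.603, 4 against 5 libraries). YFA1130 replicate 1, a culture of harvest batch 1, had the lowest ratio. With harvest batch 1 left out, the difference was -0.22 for *OLE1(FAR)* (exact permutation p = 0.111, 5 against 4 libraries) and 0.13 for *OAF1(L63S)* (exact permutation p = 0.286, 3 against 4 libraries), a choice made after seeing the data.

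*OLE1* was lowest in the first of the 3 harvest batches. The 6 libraries of batch 1 (2 of *OAF1(L63S)*, 1 of *RGT2(V539I)*, 1 of YFA1130 and 2 of YFA1131) had 822, 978, 719, 793, 681 and 731 CPM of *OLE1*, a mean of 787 ± 106 (SD, n = 6). Batch 2 had a mean of 1025 ± 137 (SD, n = 7), and batch 3 had 1057 ± 111 (SD, n = 12). Each of the 6 libraries of batch 1 was below every later library of its own strain, which was so for 71 of the 5713 genes (1.24%), *OLE1* among them. The reverse, above every later library in all 6, was so for 96 genes (1.68%). None of the other 5 genes did either. *SDS23* was above all later libraries of its strain in 3 of the 6 and *UBX2* in 2, *MGA2* was below in 3 and above in 1, *SPT23* was below in 2 and above in 1, and *RSP5* was below in 1 and above in 2. By the labels, *OLE1(FAR)* had no culture in batch 1. The 978 CPM was from the library labelled *OAF1(L63S)* replicate 5, which stands apart. The counts of genes below or above were not repeated without it.

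In the model of all 25 libraries, batch 1 against batch 3, *OLE1* had a log2 fold change of -0.38 (SE 0.11, 95% interval -0.61 to -0.16) and did not pass (unadjusted p = 0.00214, adjusted p = 0.142 from edgeR). In this model 1.17% of all genes passed (67). *OLE1* passed without the libraries that stand apart (-0.48, adjusted p = 0.00265), where 15.3% of all genes did (876), and without the surrogate variables (-0.53, adjusted p = 1.32e-05), where 38.2% did (2183). It also passed without the replicate block (-0.40, adjusted p = 0.00754), and in DESeq2 (-0.38, adjusted p = 0.0466). Leaving out *OLE1(FAR)* replicate 3 or YFA1131 replicate 4 gave a call as well (adjusted p = 0.0727 and 0.0860). The first surrogate variable was -0.384 to -0.235 in 5 libraries of batch 1 and 0.170 in the library labelled *OAF1(L63S)* replicate 5. It was -0.216 in the library labelled *OLE1(FAR)* replicate 2, of batch 2. In no other library of batches 2 and 3 was it below -0.0704. Whether the harvest labels of the libraries that stand apart hold was not tested. *MGA2* had 1.10 (adjusted p = 0.000392) with all libraries, but -0.10 (adjusted p = 0.471) without both that stand apart and -0.08 (adjusted p = 0.772) without surrogate variables, so its call and its direction rested on both of these. *SDS23* averaged 119 ± 9.31 CPM in batch 1 and 109 ± 10.8 CPM in batches 2 and 3, and *UBX2* 62.9 ± 3.43 CPM and 55.4 ± 4.87 CPM (SD, n = 6 and 19). *SDS23* had a log2 fold change of 0.03, and of these alternatives passed only without surrogate variables (0.18, adjusted p = 0.0880), as did *UBX2* (0.16, adjusted p = 0.0625, and 0.13 with them). *SPT23* had 0.05 and *RSP5* -0.15, and neither passed. With surrogate variables and both libraries left out, where 38.4% of all genes passed (2194), 4 of the 6 genes did: *OLE1* (-0.59), *MGA2* (-0.16), *SPT23* (-0.10) and *UBX2* (0.20). Batch 2 against batch 3 gave -0.01 for *OLE1* and 0.18 for *MGA2*, neither called, with 0.0175% of all genes passing (1). There, without the replicate block, *MGA2* had 0.29 (adjusted p = 0.0290).

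The ratio of *OLE1* to *SDS23* followed the harvest batches. It was 5.78 to 8.76 in batch 1 with a median of 6.10, 7.63 to 11.2 in batch 2 with a median of 8.88, and 8.32 to 11.8 in batch 3 with a median of 9.95. In batch 1 both *OAF1(L63S)* libraries, at 7.15 and 8.76, were above the 4 of the other strains, at 5.78 to 6.11. The 8.76 is from the library labelled *OAF1(L63S)* replicate 5, which stands apart, so only the library at 7.15 is left without it.

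**Figure D3:**
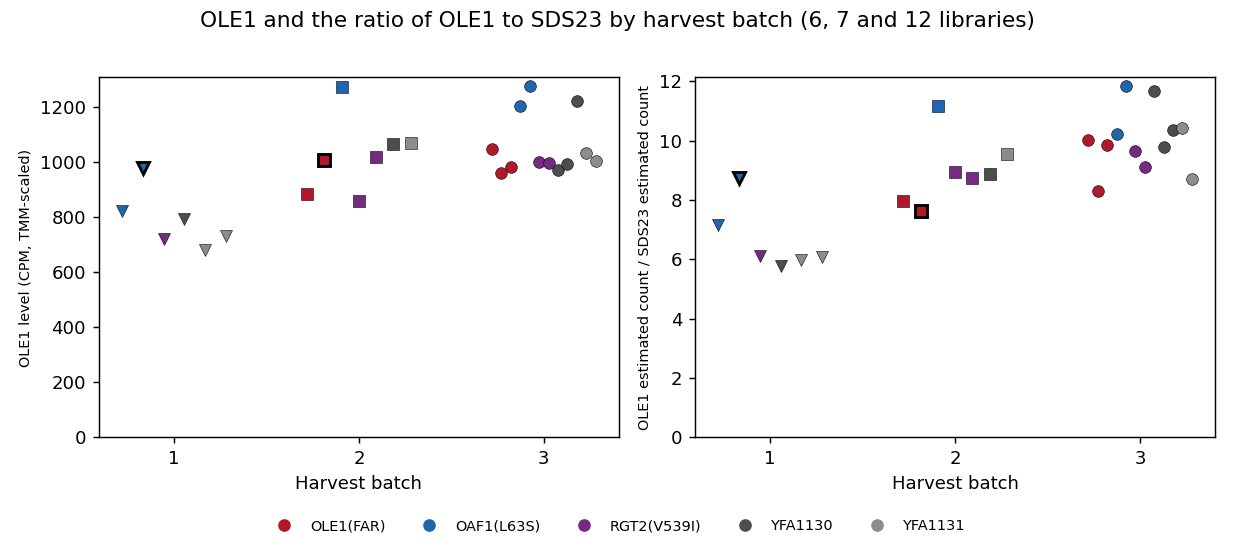
*OLE1* level in TMM-scaled CPM (left) and the ratio of *OLE1* to *SDS23* estimated counts (right) by harvest batch, 1 point a library, colored by strain, with a heavy outline for the libraries that stand apart. The 6 libraries of batch 1 lie at 681 to 978 CPM and at ratios of 5.78 to 8.76, with medians of 6.10, 8.88 and 9.95 in batches 1, 2 and 3.

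Library by library, the 15 pairs of the 6 genes were compared on log2 CPM, with p-values from permutation adjusted over the 15. Over all 25 libraries 3 pairs had an adjusted p below 0.10. Their r values share the scaling of each library and any differences of strain and harvest. How many other genes reach such an r with these genes was not counted. *SDS23* and *UBX2* varied together (Pearson's r = 0.62, permutation p = 0.00114, adjusted p = 0.0171, and Spearman's rho = 0.59, permutation p = 0.00219, adjusted p = 0.0328), and r was 0.46 without the 2 libraries farthest from the *SDS23* median. Within harvest batches 1, 2 and 3 their r was 0.23, 0.30 and 0.77. *SPT23* and *RSP5* had r = 0.56 (permutation p = 0.00415, adjusted p = 0.0311) but rho = 0.26 (permutation p = 0.201, adjusted p = 0.377). On these levels that relation rested on 2 libraries, since r was 0.17 without *OAF1(L63S)* replicate 3 and *RGT2(V539I)* replicate 3. With strain and harvest means taken out, however, it was 0.58 (permutation p = 0.00239, adjusted p = 0.00717, and rho = 0.48, permutation p = 0.0160, adjusted p = 0.0424), and 0.48 without the 2 farthest libraries. Within batches it was 0.87, 0.60 and 0.24. *SDS23* and *RSP5* had r = 0.51 (permutation p = 0.0111, adjusted p = 0.0554) and rho = 0.35 (permutation p = 0.0858, adjusted p = 0.258). Their r was 0.39 without the 2 farthest libraries, 0.46 without the libraries that stand apart (adjusted p = 0.152), and 0.08, 0.86 and 0.68 within batches. With strain and harvest means taken out, r was 0.62 for *SDS23* and *UBX2* and 0.60 for *SDS23* and *RSP5* (adjusted permutation p = 0.00717 for both), and 0.58 and 0.34 without the 2 farthest libraries. Such deviations were permuted as free values although means had been taken out, so their p-values tend to be too small.

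For the divergent pair *OLE1* and *SDS23*, r was -0.13 over all libraries (permutation p = 0.542, adjusted p = 0.581, and rho = -0.02, permutation p = 0.942, adjusted p = 0.942), with -0.16 in batch 1, 0.44 in batch 2 and 0.45 in batch 3. With strain and harvest means taken out, r was 0.51 (permutation p = 0.00842, adjusted p = 0.0210) and rho 0.42 (permutation p = 0.0403, adjusted p = 0.0755), and r was 0.37 without the 2 farthest libraries. *OLE1* and *SPT23* had r = 0.29 over all libraries (permutation p = 0.162, adjusted p = 0.386) and rho = 0.36 (permutation p = 0.0751, adjusted p = 0.258). Their deviations from strain and harvest means had r = 0.65 (permutation p = 0.000380, adjusted p = 0.00570) and rho = 0.58 (permutation p = 0.00294, adjusted p = 0.0220), and r = 0.58 without the 2 farthest. Within batches 1, 2 and 3 the values were -0.28, 0.60 and 0.55. *OLE1* and *RSP5* deviations had r = 0.59 (permutation p = 0.00194, adjusted p = 0.00717) and rho = 0.48 (permutation p = 0.0169, adjusted p = 0.0424), and r = 0.50 without the 2 farthest. By r, deviations of *OLE1* thus went with those of *SDS23*, *SPT23* and *RSP5*, but the p-values of deviations tend to be too small, as above. The r values share the scaling of each library. Of 5440 genes 510 (9.38%), 79 (1.45%) and 197 (3.62%) had an r with *OLE1* at least as high as *SDS23*, *SPT23* and *RSP5* had.

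The test of *OLE1* and *MGA2* over the 25 libraries pooled (permutation p = 0.461, adjusted p = 0.532) is not interpreted, since *MGA2* fell into separate levels by strain. As a description of points that differ by strain, r was -0.15 over all 25 libraries and 0.26, -0.53 and -0.63 over the 6, 7 and 12 of harvest batches 1, 2 and 3. Over the 15 libraries of *RGT2(V539I)*, YFA1130 and YFA1131, where *MGA2* did not differ, r was 0.67 (permutation p = 0.00556, adjusted p = 0.0417) and rho 0.84 (permutation p = 0.000210, adjusted p = 0.00315). Without the 2 libraries farthest from the *OLE1* median r was 0.77. Of these, the 11 of harvest batches 2 and 3 had r = 0.92 (permutation p = 9.0e-05, adjusted p = 0.00135) and rho = 0.86 (permutation p = 0.00117, adjusted p = 0.0132), and r = 0.82 without the 2 farthest. As a description, *MGA2* had the highest r with *OLE1* of 5440 genes over these 11 libraries, where *SPT23* had 0.76 and 210 genes (3.86%) had as much, while over the 15 libraries 523 genes (9.61%) had at least the r of *MGA2*. The 4 of batch 1 lay lower, at 681 to 793 CPM of *OLE1* with 188 to 200.2 CPM of *MGA2*, and are too few for a value of their own. Both sets were chosen after seeing the data. With strain and harvest means taken out of all 25, r was 0.27 (permutation p = 0.196, adjusted p = 0.295, and rho = 0.25, permutation p = 0.232, adjusted p = 0.347). These deviations include both libraries that stand apart, which lie far from their strains in *MGA2*. The value was not computed without them, so it cannot decide whether the 2 genes vary together within strains. Among strains the order was another one, since *OAF1(L63S)* had the lowest *MGA2* and the highest mean of *OLE1*.

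**Figure D4:**
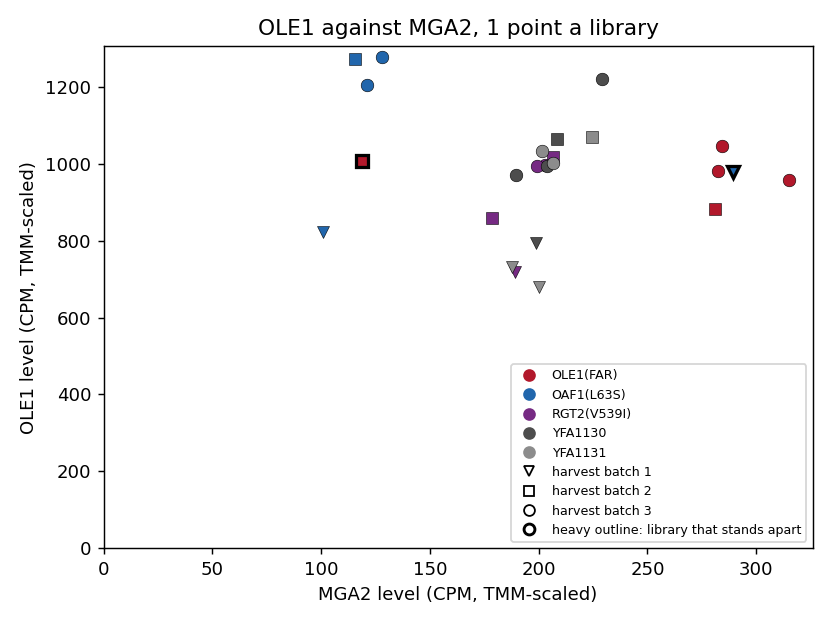
*OLE1* level (vertical axis) against *MGA2* level (horizontal axis), both in TMM-scaled CPM, 1 point a library, with color for strain, shape for harvest batch and a heavy outline for the libraries that stand apart. The 15 libraries of *RGT2(V539I)*, YFA1130 and YFA1131 form 1 group (r = 0.67 on log2 CPM), with 4 *OAF1(L63S)* libraries at 101 to 128 CPM of *MGA2* and 4 *OLE1(FAR)* libraries at 281 to 315 CPM.

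Across the 5440 genes with at least 10 counts in every library, the genes most like each regulator or target were ranked by r of log2 CPM over the 25 libraries, as a description. For *MGA2* these were *COS10* (0.98), of a family of endosomal membrane proteins, *IZH4* (0.96), *ALE1* (0.94), a lysophospholipid acyltransferase gene, *PLB2* (0.94), a lysophospholipase gene, and *FAA4* (0.90). Most unlike it were *ANT1* (-0.88), the gene for the adenine nucleotide carrier of peroxisomes, *FAT3* (-0.84) and the phosphate transporter gene *PHO84* (-0.83). Without the libraries that stand apart the 5 highest lay between 0.89 and 0.97. *PLB2* counts were not whole in 6 libraries, so its reads were in part shared with another gene. For *OLE1* the highest were *BSC1* (0.81), *SAH1* (0.80), which encodes S-adenosylhomocysteine hydrolase, *PSD1* (0.79), a phosphatidylserine decarboxylase gene, *PSA1* (0.79) and *PRM7* (0.79). The lowest were *BDH1* (-0.85), *KTR4* (-0.83) and YKL033W-A (-0.82). Only 2 genes were above 0.8 with *OLE1* and 24 with *MGA2*. These points share strain, harvest batch and scaling. Since *MGA2* fell into separate levels by strain, the r values of its list hold differences between strains. With strain and harvest means taken out, its 5 highest had 0.95 to 0.98, *ANT1* -0.92, *FAT3* -0.85 and *PHO84* -0.74. Those deviations include both libraries that stand apart, which lie far from their strains in *MGA2*. The list for *OLE1* moved when strain and harvest means were taken out (*BSC1* 0.42, *SAH1* 0.76).

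Of 14 genes for proteins that act on Mga2, Spt23 or Ole1 at the ER, among them *CDC48*, *UFD1*, *NPL4*, the Doa10 ligase gene *SSM4*, the ligase gene *HRD1*, *UBX2* and *RSP5*, 0 were called in any strain comparison. Over all genes 0.158% to 1.17% were called in these comparisons, so 0 of 14 is near that share. At an unadjusted p under 0.05, *HRD1* had 0.14 and *CDC48* 0.11 in *OLE1(FAR)*, and *HRD1* had -0.11 in *OAF1(L63S)*. The median log2 fold change of the list was 0.07 in *OLE1(FAR)*, where that of all genes was 0.0014, and -0.0015 in *OAF1(L63S)*, where that of all genes was -0.01. None was called in batch 1 against batch 3 either, where 1.17% of all genes were. When both libraries that stand apart were left out, *NPL4* alone was called (0.33), where 15.3% of all genes were. The 4 genes of electron transfer to the desaturase (*CBR1*, *CYB5*, *NCP1* and *MCR1*) and *SDS24*, the paralog of *SDS23*, were called in no strain comparison. That too is near the share of all genes.

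The list of 14 genes of fatty acid synthesis, activation, elongation and response had calls in both of the strains in which *MGA2* did. In *OLE1(FAR)*, where 0.98% of all genes were called, 8 were higher and 0 lower, with a median of 0.29 (all genes 0.0014). These were *ACC1* (0.30), for acetyl-CoA carboxylase, the fatty acid synthase genes *FAS1* (0.29) and *FAS2* (0.23), *FAA4* (0.35), the alcohol acetyltransferase gene *ATF1* (0.50), and *IZH1* (0.40), *IZH2* (0.42) and *IZH4* (1.91). In *OAF1(L63S)*, where 1.17% of all genes were called, 0 were higher and 5 lower, with a median of -0.19 beside -0.01. These were *ACC1* (-0.30), *FAS1* (-0.34), *FAS2* (-0.25), *IZH1* (-0.29) and *IZH4* (-2.13). The values share the YFA1130 controls, and the list was assembled with results of these libraries known. Without both libraries that stand apart the counts were 5 higher and 1 lower (*FAA1*, -0.20) in *OLE1(FAR)*, and 0 higher and 6 lower in *OAF1(L63S)*. Of all genes 0.543% and 1.54% were called in these fits. The 8 became 5 without *OLE1(FAR)* replicate 3 and 4 without YFA1130 replicate 2 or with library preparation at 4 levels, and the 5 became 3 without *OAF1(L63S)* replicate 1 and 2 without *OAF1(L63S)* replicate 3, *OAF1(L63S)* replicate 4 or YFA1130 replicate 1. Calls over all genes fell too, from 56 to 34 without *OLE1(FAR)* replicate 3 and 36 without YFA1130 replicate 2. In *OAF1(L63S)* they fell from 67 to 43 without *OAF1(L63S)* replicate 4. These losses are therefore not particular to the list. Of the named calls, that of *FAS2* in *OLE1(FAR)* was lost in 8 of the 10 fits that leave out 1 library (adjusted p up to 0.79), that of *FAA4* in 6, and those of *ACC1* and *FAS1* in 2 each, while *IZH1*, *IZH2*, *IZH4* and *ATF1* lost none. In *OAF1(L63S)* the call of *FAS2* was lost in 6 of 10, of *IZH1* in 5 and of *ACC1* in 3, while *FAS1* and *IZH4* lost none. Without surrogate variables or with genotype only, none of the 14 was called in either strain, and in the fits of 10 libraries 0 were called higher in *OLE1(FAR)* and 3 lower in *OAF1(L63S)*. Calls over all genes changed in these fits as well, as given below, and the fits of 10 libraries had almost as many terms as libraries. In batch 1 against batch 3, 4 were higher and 0 lower (*ACC1*, *FAS1*, *IZH1* and *IZH4*), but 1 higher and 3 lower without both libraries. Of all genes 1.17% were called with them and 15.3% without. The 4 became 2 without *OLE1(FAR)* replicate 5, *OAF1(L63S)* replicate 3 or *OAF1(L63S)* replicate 4, 1 without *OAF1(L63S)* replicate 5 and 7 without YFA1131 replicate 4. Over all genes 37 were called without *OLE1(FAR)* replicate 5, 19 without *OAF1(L63S)* replicate 5 and 78 without YFA1131 replicate 4, against 67 with all libraries.

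Around the shared intergenic region, *PKP2*, *RAD6* and *GEP7* on the *SDS23* side and *ERV14* and *PRM8* on the *OLE1* side were called in neither *OLE1(FAR)* nor *OAF1(L63S)*, with log2 fold changes of -0.06 to 0.03 in *OLE1(FAR)* and -0.13 to 0.18 in *OAF1(L63S)*. Of all genes 0.98% and 1.17% were called in these comparisons. *MST27*, next beyond *PRM8*, had no count in some libraries and was not tested.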

How the data were processed

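RNA from 25 cultures was sequenced as stranded poly-A libraries. The authors trimmed reads with Trimmomatic 0.38 and estimated counts with kallisto (version not given in the sources used here) on the Ensembl transcripts of the sacCer3 genome; the deposited values are these estimated counts, not normalized, and were rounded here. Genes with a count above 0 in every library were tested (5713 of 6713). All 25 libraries were fitted with edgeR 4.0.16 in R 4.3.3 (quasi-likelihood test, TMM, Benjamini-Hochberg, FDR 10%) on genotype, harvest, RNA isolation and library preparation batch (2 levels) and 2 surrogate variables from sva 3.50.0. The script was tested on simulated data. CPM used a pseudocount of 0.5 before logs. Correlations used 100000 resamples, or exact enumeration in harvest batches 1 and 2. Deviations from strain and harvest means were permuted as free values, so their p-values tend to be too small. Sequences and positions are from the sacCer3 reference.

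Replicate numbers are RNA isolation batches per the labels, so they pair samples and the fit holds them as a block. Deviations of same-numbered libraries correlated above 0.1 in 10 of 20 pairs (r of -0.47 to 0.53). Replicates are separate cultures of 1 clone.

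The 6 genes and the lists were chosen with earlier results of these data known. Named are the 6 genes, the 3 neighbours on each side of *SDS23* and *OLE1*, the 5 highest and 3 lowest by r with *OLE1* and *MGA2*, called list genes and examples, and *POX1*, *FAA4* and *IZH4* for the libraries that stand apart. *HRD1*, *CDC48*, *NPL4* and *FAA1* were named as examples after their values were seen. Alternatives covered DESeq2 1.42.0, RLE scaling, count filters, terms of the model, control strains, libraries left out and harvest batches. Sets of libraries for the correlations, the ratio without harvest batch 1, and the fit without surrogate variables and without both libraries that stand apart were added after seeing the data.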

Additional observations from a re-analysis of the deposited data

Results flagged for a closer look

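Within each strain, each gene's highest or lowest library was compared with the rest by Dixon's test, over 30 groups of 5 libraries, of which chance alone would flag about 1 in 20. In 4 groups 1 library lay far from the other 4. *MGA2* was at 119 CPM in the library labelled *OLE1(FAR)* replicate 2 and at 289 CPM in the library labelled *OAF1(L63S)* replicate 5, with a gap of 0.83 and 0.86 of the whole range. *SPT23* was lowest at 81.0 CPM in *OAF1(L63S)* replicate 3, with a gap of 0.79 of the range. *RSP5* was lowest at 70.7 CPM in YFA1130 replicate 2, with a gap of 0.76. That *OAF1(L63S)* library also had the lowest *RSP5* of all 25 (66.5 CPM), and that YFA1130 library the lowest *SDS23* (83.2 CPM) and *UBX2* (46.8 CPM). What set these libraries apart was not tested.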

How the results depend on the processing

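Alternatives gave 1327 further values of 63 results, 686 of them from leaving out 1 library, and the cause of a change was not tested unless fewer libraries are the change itself. Counts below are genes called at FDR 10%, and other values are log2 fold changes. The fits of 10 libraries had no surrogate variables and almost as many terms as libraries, so calls gained or lost in them carry little weight.

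In *OLE1(FAR)* against YFA1130, the 56 genes became 22 with library preparation at 4 levels, 31 without both libraries that stand apart, 32 with these and the surrogate variables left out, 21 in a fit of the 10 libraries, 5 without surrogate variables and 3 with genotype only. *MGA2* lost its call without surrogate variables (0.30), with genotype only (0.32) and in the 10 libraries (0.21), which left 0 of the 6 genes. With library preparation at 4 levels *SDS23* turned to -0.030, *SPT23* to -0.031 and *RSP5* to -0.067, without surrogate variables and both libraries *SDS23* to -0.0050 and *RSP5* to -0.045, and in the 10 libraries *SPT23* to -0.0014.

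In *OAF1(L63S)* against YFA1130, the 67 genes became 141 with both wild types as control, 120 in the 10 libraries, 10 without surrogate variables and 3 with genotype only. *OLE1* lost its call without surrogate variables (0.25), also without both libraries (0.23, leaving 1 of the 6 genes), with genotype only (0.14) and in the 10 libraries (0.19). *MGA2* lost it without surrogate variables (-0.56) and with genotype only (-0.45), which left 0. *SPT23* turned to 7.1e-05 in DESeq2, 0.00013 with RLE, 0.00065 with at least 10 counts, 0.0074 with library preparation at 4 levels, 0.0080 without surrogate variables and 0.030 in the 10 libraries. *RSP5* gained a call in the 10 libraries (0.36) and turned to -0.031 with both wild types, -0.042 with library preparation at 4 levels, -0.0082 with no replicate block and -0.00028 without surrogate variables and both libraries.

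In *RGT2(V539I)* against YFA1131, the 61 genes became 104 without both libraries, 37 without surrogate variables, 36 with both wild types and 4 with genotype only. *OLE1* turned to -0.029 with both wild types, -0.037 without surrogate variables and -0.025 also without both libraries. *MGA2* turned to -0.054 without both libraries, -0.16 without surrogate variables, -0.089 without either and -0.065 with genotype only. The fit of 10 libraries could not be fitted here, since its batch terms were not separable. In YFA1131 against YFA1130, the 9 genes became 442 in the 10 libraries (1 of the 6 genes, *RSP5*, at 0.13), 71 without both libraries, 36 in DESeq2, 19 with at least 10 counts, 16 with library preparation at 4 levels, 4 without surrogate variables and 1 with genotype only. *MGA2* turned to 0.019 without both libraries, 0.025 without surrogate variables, 0.021 without either and 0.022 in the 10 libraries.

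In harvest batch 1 against batch 3, the 67 genes became 2183 without surrogate variables, 2194 also without both libraries, 876 without both and 198 with no replicate block. *OLE1* passed in DESeq2 (-0.38), without surrogate variables (-0.53), with no replicate block (-0.40), with library preparation at 4 levels (-0.49), without both libraries (-0.48) and without either (-0.59). Of the 6 genes, 2 passed in DESeq2, with no replicate block and at 4 levels, 3 without surrogate variables and 4 also without both (*OLE1*, *MGA2*, *SPT23* and *UBX2*). For DESeq2 and 4 levels the share of all genes is not given here, so the 2 of 6 cannot be weighed against it. *MGA2* turned to -0.081, -0.10 and -0.16 and *SPT23* to -0.080, -0.080 and -0.10 without surrogate variables, without both libraries and without either. At 4 levels *SDS23* turned to -0.081 and *SPT23* to -0.024, and *RSP5* to 0.0070 with no replicate block. In batch 2 against batch 3, the 1 gene became 188 without surrogate variables, 39 without both libraries, 35 with no replicate block (1 of the 6 genes, *MGA2*), 15 without surrogate variables and both, 13 in DESeq2 and 3 at 4 levels. *OLE1* turned to 0.0054 with no replicate block, and *MGA2* to -0.28, -0.022 and -0.0048 without surrogate variables, without both libraries and without either. The fit with no replicate block changed no other call of the 6 genes.

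Leaving out 1 library at a time gave 34 to 67 genes in *OLE1(FAR)*, 43 to 72 in *OAF1(L63S)*, 15 to 52 in *RGT2(V539I)*, 5 to 33 between wild types, 19 to 78 for batch 1 and 0 to 3 for batch 2 against batch 3. Of the 6 genes 1 to 2 passed in *OAF1(L63S)* and 1 to 2 for batch 1. In *OLE1(FAR)*, *OLE1* ran from -0.14 to -0.027, *UBX2* from 0.068 to 0.19, *SDS23* from -0.061 to 0.086, *SPT23* from -0.0053 to 0.061 and *RSP5* from -0.040 to 0.30. In *OAF1(L63S)*, *OLE1* ran from 0.21 to 0.26, *SDS23* from -0.073 to 0.077, *SPT23* from -0.038 to 0.031 and *RSP5* from -0.088 to 0.22. In *RGT2(V539I)*, *OLE1* ran from -0.0065 to 0.062 and *MGA2* from -0.066 to 0.20, and between wild types *MGA2* ran from -0.23 without YFA1131 replicate 4 to -0.0045 without YFA1131 replicate 1. For batch 1, *OLE1* ran from -0.61 to -0.35, *SDS23* from -0.083 to 0.19 and *SPT23* from -0.081 to 0.082, *UBX2* from 0.024 to 0.36 and *RSP5* from -0.76 to -0.0098, with the ends 0.36 and -0.76 without *OAF1(L63S)* replicate 5, and for batch 2 *OLE1* ran from -0.068 to 0.040. The log2 ratio of *OLE1* to *SDS23* ran from -0.22 to 0.035 in *OLE1(FAR)* and from -0.066 to 0.20 in *OAF1(L63S)*.

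Of the correlations, *OLE1* and *SDS23* turned to 0.44 in harvest batch 2, 0.45 in batch 3 and 0.51 in deviations, and *OLE1* and *SPT23* to -0.28 in batch 1, while their 0.65 in deviations passed. The p-values of deviations tend to be too small. *OLE1* and *MGA2* had 0.27 in deviations, which include both libraries that stand apart. In batches 1 and 2 *SDS23* and *UBX2* had 0.23 and 0.30. In batches 1, 2 and 3 *SDS23* and *RSP5* had 0.076, 0.86 and 0.68 (0.46 without both libraries), and *SPT23* and *RSP5* 0.87, 0.60 and 0.24.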
